A study of Mus musculus with 8 samples.

Results

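The killer lectin-like receptors are C-type lectin-like receptors of natural killer (NK) cells, which activated CD8+ T cells also carry. They read ligands on other cells, among them classical and nonclassical MHC class I molecules, stress-induced MHC-like proteins and C-type lectin relatives. Inhibitory members signal through tyrosine motifs that recruit phosphatases such as SHP-1, and activating members signal through adaptor proteins. In mice the genes lie together in the natural killer gene complex on chromosome 6, beside the genes of some of their own ligands. The family was taken here as all rows of the gene count table whose symbol is Klr, a letter from a to e, g to i or k, and a digit, without pseudogenes and with at least 1 count in any sample. This gave 24 genes of 55335. Of 26 rows with such a symbol, *Klrg2* and *Klrb1* had no count in any sample, and 4 pseudogenes were left out.

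The RNA came from tumor-infiltrating lymphocytes (TILs) of MC38 tumors, sorted as CD45.2+TCRβ+CD8+CD44+PD-1+, where MC38 is a mouse colon carcinoma line. The groups were 4 wildtype (WT) samples from Lsd1f/f mice and 4 knockout (KO) samples from Cd4-Cre+Lsd1f/f mice, all C57BL/6 per the labels and 6 to 10 weeks old per the methods. Every animal carried the floxed *Lsd1* (*Kdm1a*) alleles, and Cd4-Cre removes them in developing T cells, CD4 lineage cells included. A WT sample pooled TILs of 2 mice and a KO sample held those of 1 mouse, with 10000 to 20000 cells sorted. The extraction protocol names day 18 after implantation and the series design 14 days. The comparison asks which genes differ between LSD1-deficient and control PD-1+ CD8+ TILs. The WT columns of the table are named S1, S2, S3 and S4 here, and the KO columns S5, S6, S7 and S8.

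Levels are in CPM, the counts of a gene relative to those of its library, after TMM scaling, in libraries of 11657807 to 30295406 counts. At these depths 3 counts, taken here as the detection floor, correspond to 0.106 to 0.25 CPM. *Kdm1a* was at 42.7 to 47.2 CPM in WT and 25.2 to 34.8 CPM in KO, without overlap, with a log2 fold change of -0.55 ± 0.14 (SE, adjusted p = 0.0163). These counts cover the whole gene and not the deleted part alone. The *Cd44* and *Pdcd1* transcripts of the sort were present in every sample, as were those of *Cd3e* and *Cd8a*. *Cd44* was higher in KO, at 399 to 488 CPM in WT and 670 to 952 CPM in KO (adjusted p = 0.000107), whereas the other 3 overlapped between groups. The methods list the CD8 antibody clone of the sort as CD8b, which *Cd8b1* encodes. *Cd8b1* was lower in KO, at 306 to 377 CPM in WT and 231 to 289 CPM in KO (adjusted p = 0.0158). A gene was called when its fold change was above 1.5 and its adjusted p under 0.01 in edgeR's quasi-likelihood test. Each ± on a log2 fold change is a standard error.

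The NKR-P1 genes, *Klrb1a*, *Klrb1b*, *Klrb1c* and *Klrb1f*, encode receptors for C-type lectin relatives. The sequences before their RefSeq starts are shown because *Klrb1b* was called higher in KO. Each is the stretch of 250 bases before the RefSeq start on GRCm38.p6, written 5′ to 3′ on the strand of the gene. *Klrb1a* lies at chr6:128622935-128623184, *Klrb1c* at chr6:128788642-128788891 and *Klrb1b* at chr6:128826316-128826565, all on the minus strand, and *Klrb1f* at chr6:129045651-129045900 on the plus strand. RefSeq starts can differ from those of the GENCODE genes counted here. The *Klrb1a* and *Klrb1c* windows lie wholly inside the GENCODE genes, which reach to 128623533 and 128789215. The *Klrb1b* window lies partly inside its gene, which reaches to 128826331. Capitals mark the longest run of bases shared by *Klrb1b* and *Klrb1f*, and likewise the longest run shared by *Klrb1a* and *Klrb1c*.
Klrb1b: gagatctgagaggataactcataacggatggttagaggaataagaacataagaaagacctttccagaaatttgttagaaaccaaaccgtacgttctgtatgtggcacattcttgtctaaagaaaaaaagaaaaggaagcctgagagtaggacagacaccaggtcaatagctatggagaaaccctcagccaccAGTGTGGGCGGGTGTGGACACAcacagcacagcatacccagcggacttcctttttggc
Klrb1f: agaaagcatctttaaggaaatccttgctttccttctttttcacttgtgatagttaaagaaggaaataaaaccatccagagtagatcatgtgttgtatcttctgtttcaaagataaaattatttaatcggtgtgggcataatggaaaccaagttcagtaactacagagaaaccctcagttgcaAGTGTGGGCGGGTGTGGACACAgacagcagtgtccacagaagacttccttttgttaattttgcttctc
Klrb1c: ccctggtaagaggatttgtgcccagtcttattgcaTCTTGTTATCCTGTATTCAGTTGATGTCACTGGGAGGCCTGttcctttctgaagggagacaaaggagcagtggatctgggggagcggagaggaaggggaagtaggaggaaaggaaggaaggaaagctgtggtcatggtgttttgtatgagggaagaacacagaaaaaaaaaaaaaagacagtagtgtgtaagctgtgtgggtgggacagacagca
Klrb1a: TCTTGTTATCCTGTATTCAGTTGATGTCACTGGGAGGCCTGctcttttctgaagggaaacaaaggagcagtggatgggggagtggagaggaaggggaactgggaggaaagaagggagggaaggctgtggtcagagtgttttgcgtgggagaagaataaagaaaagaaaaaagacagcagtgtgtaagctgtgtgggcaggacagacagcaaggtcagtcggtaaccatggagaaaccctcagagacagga

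The shared run of *Klrb1b* and *Klrb1f* had 22 bases, ended 37 and 47 bases before the respective starts, and was found in the windows of no other gene among 32851 RefSeq promoter windows. The run of *Klrb1a* and *Klrb1c* had 41 bases and was likewise found in no other gene's window. The windows were also searched on both strands for the letters TGTGGT (RUNX), CTTTGA (TCF/LEF) and GGTGTGA (T-box), whose searched strings do not contain each other. Of the 24 members, 21 had a window in the table, and *Klri2*, *Klrd1* and *Klrg1* had none. The RUNX letters stood in 8 of these 21, *Klrb1a* and *Klrb1c* among them, and in 14.0% of all windows. The windows of *Klrc2* and *Klrc3*, which both held RUNX letters, share long runs of bases. Those of *Klrb1a* and *Klrb1c* share the run of 41 bases, so the 8 windows with RUNX letters are not all independent. TCF/LEF letters stood in 3 of 21, those of *Klrb1f*, *Klra6* and *Klra7*, against 13.8% of all windows, and T-box letters in 0 of 21 against 3.33%. The *Klrb1b* window held none of the motifs. The windows of *Klre1*, *Klra5* and *Klra7* also lie inside the GENCODE genes. These matches are letters in a window and not measured binding.

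In the comparison of KO with WT, 14 of the 24 members passed the filter on low counts and were tested. *Klri2* and *Klrb1b* were called higher in KO, whereas 2.91% of the 15378 genes tested were called higher. None of the 14 was called lower, against 1.99% of all genes. At an adjusted p under 0.05 with the same fold limit, 3 members were higher (*Klri2*, *Klrb1b* and *Klrb1c*) and 1 was lower (*Klra2*), against 4.52% and 3.58% of all genes. *Klrb1c* and *Klrb1f* passed the filter mainly through the KO samples and *Klra6* and *Klra7* mainly through the WT samples, so that their inclusion is tied to their direction. The median log2 fold change was 0.30 over the tested members and -0.01 over all genes tested.

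The samples of the groups did not overlap at 8 tested members. All KO samples lay above all WT samples for *Klri2*, *Klrb1b*, *Klrb1c*, *Klrb1f*, *Klrk1* and *Klrc1*, a pattern shown by 8.99% of all genes tested. All KO samples lay below all WT samples for *Klre1* and *Klra2*, a pattern shown by 8.28% of all genes.

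**Figure D1:**
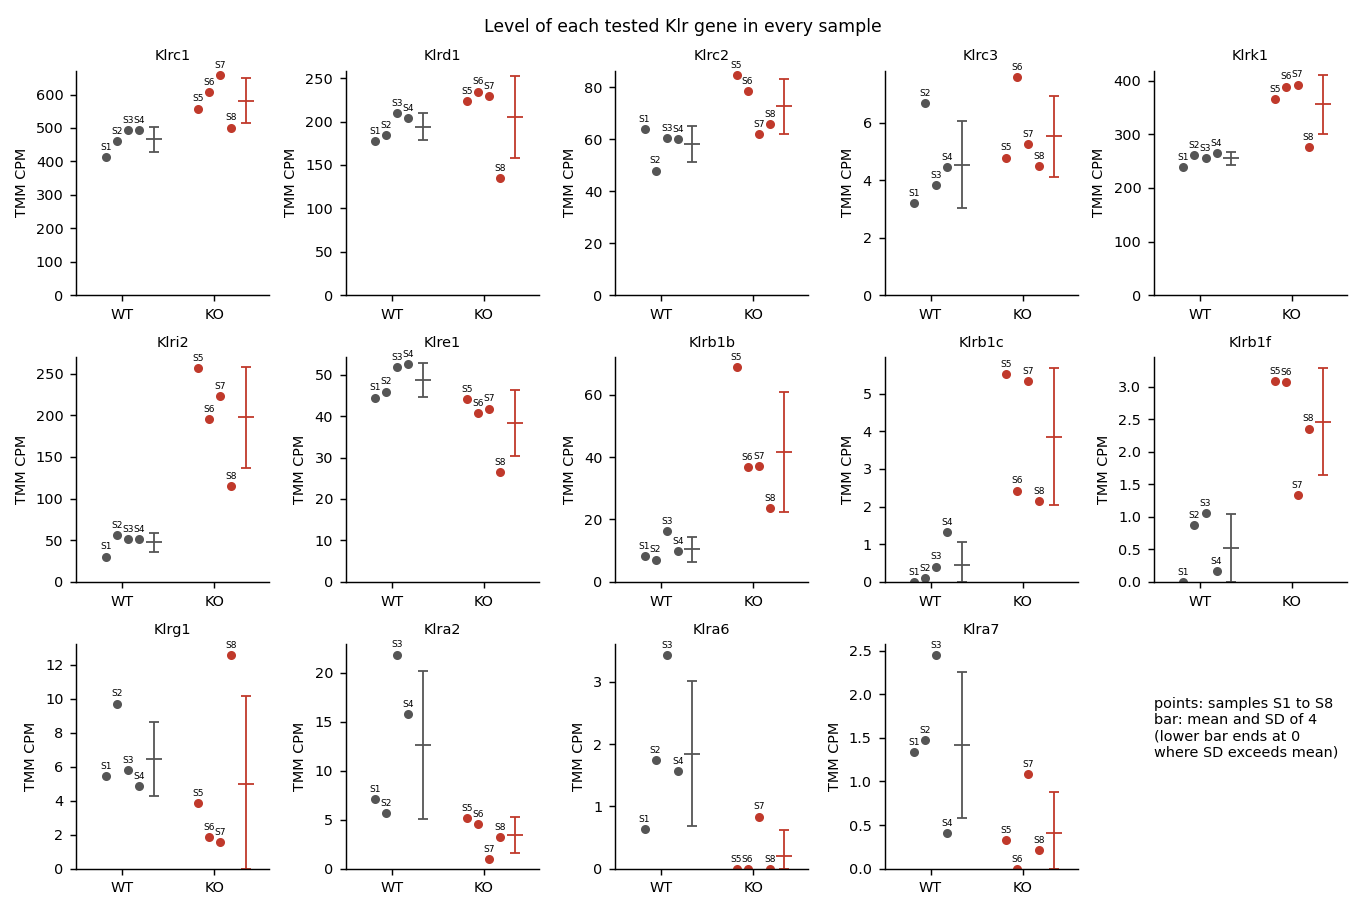
Level in TMM CPM (y axis, linear, from 0) of the 14 tested Klr genes in the 4 WT (grey) and 4 KO (red) samples, labelled S1 to S8, with the mean and SD of each group beside the points. *Klri2* and *Klrb1b* stand apart most clearly. S8 is the lowest KO sample for *Klri2*, *Klrb1b*, *Klrb1c*, *Klrd1*, *Klrk1*, *Klrc1*, *Klrc3* and *Klre1*.

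**Figure D2:**
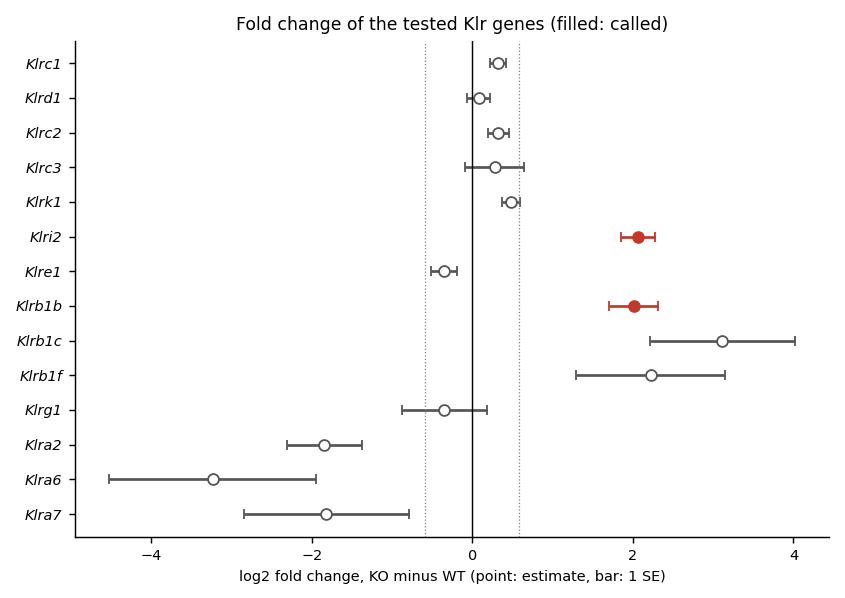
Log2 fold change of KO over WT (x axis) with 1 SE for the 14 tested Klr genes, ordered by role, filled red where called. Dotted lines mark a fold change of 1.5 in either direction, and *Klrb1c*, *Klrb1f*, *Klra6* and *Klra7* have the widest bars.

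*Klri2* (ENSMUSG00000043932.5, chromosome 6, 129729041 to 129740484, minus strand) encodes an activating receptor that pairs with KLRE1. Its levels were 30.3, 55.7, 51.4 and 51.7 CPM in S1 to S4 and 257, 195, 223 and 115 CPM in S5 to S8. Every KO sample held more than the highest WT sample, and S8 was the lowest of the KO samples and S1 of the WT samples. The means were 47.3 ± 11.5 CPM in WT and 197 ± 60.5 CPM in KO (SD, n = 4 each). KO exceeded WT by 2.06 ± 0.22 on the log2 scale, or 4.17-fold, with an adjusted p of 7.28e-06 in edgeR's test. *Klri2* was called under every alternative run, with log2 fold changes from 1.90 to 2.25.

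*Klre1* (ENSMUSG00000050241.8, 129577905 to 129585827, plus strand) encodes the common partner chain of KLRI1 and KLRI2. It was at 44.5, 45.9, 51.8 and 52.6 CPM in WT and at 44.1, 40.7, 41.8 and 26.6 CPM in KO. The KO samples were all below the WT samples, but S5 and S1 nearly touched and S8 alone was far lower. The log2 fold change of -0.35 ± 0.16 was not called (adjusted p = 0.186), and was -0.20 without S8 (adjusted p = 0.421). *Klri1*, the inhibitory relative of *Klri2*, had 0 counts in the 4 WT samples and 5 counts each in S6 and S8, which is too few for a comparison. On a scale per kilobase of exons, the ratio of *Klri2* to *Klre1* was 0.609, 1.08, 0.886 and 0.878 in WT and 5.20, 4.28, 4.76 and 3.86 in KO. The transcripts of both chains were at about the same level per length in WT, while *Klri2* exceeded *Klre1* in every KO sample, S8 included. This ratio was chosen after its values were seen, so no p-value is given for it.

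*Klrb1b* (ENSMUSG00000079298.9, 128813706 to 128826331, minus strand) encodes an inhibitory NKR-P1 receptor that recognizes the lectin-like protein made by *Clec2d*. It was measured at 8.19, 7.14, 16.4 and 9.82 CPM in WT and 68.8, 36.9, 37.1 and 23.6 CPM in KO. S5 was the highest sample, and S8 remained above S3, the highest WT sample. KO was higher by 2.01 ± 0.30 on the log2 scale, or 4.02-fold (adjusted p = 0.000295), and *Klrb1b* too was called under every alternative, from 1.65 to 2.31. Of its transcribed 43-base words, 28.3% also occur in other annotated genes, mainly in *Gm44511*, an overlapping gene on the same strand. For *Klrb1c* this share was 18.2%, again mainly in *Gm44511*. Of its 1012 exon bases, *Gm44511* shares 599 with *Klrb1b* and 413 with *Klrb1c*. It had 0 counts, but how reads on shared bases were counted is not given. These 0 counts therefore do not show its level, and reads of both members may have been lost there.

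*Klrb1c* (ENSMUSG00000030325.16, 128778485 to 128789215, minus strand) encodes NK1.1, the activating receptor used to mark NK cells in C57BL/6 mice. Its levels were 0, 0.109, 0.408 and 1.32 CPM in WT and 5.51, 2.42, 5.34 and 2.15 CPM in KO, from 23 counts in all WT libraries and 239 in all KO libraries. The groups did not overlap. An estimated log2 fold change of 3.12 ± 0.91 did not pass the threshold (adjusted p = 0.0338). It was called without S4, the WT sample with the most counts, at 4.54 (adjusted p = 0.00802), and by DESeq2 (adjusted p = 0.00176). Over all alternatives its adjusted p ranged from 0.00176 to 0.11, and it was above 0.05 with glmTreat and without S2, S3, S5 or S7.

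*Klrb1f*, which encodes another activating NKR-P1 receptor, was at 0, 0.872, 1.06 and 0.165 CPM in WT and 3.09, 3.07, 1.34 and 2.36 CPM in KO. These groups were also apart, at few counts, with a log2 fold change of 2.22 ± 0.93 (adjusted p = 0.146). *Klrb1a* stayed at 0 to 0.898 CPM in WT and 0 to 1.12 CPM in KO and was not tested. The summed level of the 4 NKR-P1 genes was 8.17 to 18.8 CPM in WT and 28.8 to 78.5 CPM in KO. *Klrb1b* made up most of it, with means of 10.4 CPM in WT and 41.6 CPM in KO. The means of the sum were 11.8 and 48.3 CPM.

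Markers of other cells that carry NKR-P1 receptors were read beside these genes. Of 8 NK cell markers, which include the adaptors *Fcer1g* and *Tyrobp*, 6 were tested, 0 were called higher and 1, *Fcer1g*, was called lower. *Fcer1g* and *Tyrobp* are also myeloid genes. *Itga2*, which encodes CD49b, was at 5.75 to 8.33 CPM in WT and 9.32 to 14.7 CPM in KO, without overlap (0.68 ± 0.26, adjusted p = 0.102), and *Osbpl5* had a log2 fold change of 0.27 ± 0.15 (adjusted p = 0.312). Lower in KO were *Fcgr3*, without overlap (-1.25 ± 0.44, adjusted p = 0.0772), and *Adamts14*, with overlap (-0.34 ± 0.22, adjusted p = 0.372). *Fcgr3* was highest in S3, at 16.5 CPM against 9.32 to 9.70 CPM in the other WT samples. S3 was also highest in the summed level of the myeloid markers given below. The summed level of the 8 NK cell markers was 104 to 144 CPM in WT and 82.0 to 116 CPM in KO. *Adamts14* was the largest part of it in WT, at 48.6 to 68.1 CPM, and was at 23.4 to 61.3 CPM in KO. *Ncr1*, which defines NK cells in C57BL/6 mice, was at 0 to 0.272 CPM in WT and 0 to 0.985 CPM in KO. The 3 markers of innate-like T cells summed to 1.96 to 4.21 CPM in WT and 2.91 to 7.93 CPM in KO, and the gamma delta T cell markers to 0.577 to 4.90 CPM and 0.323 to 8.68 CPM, with *Tcrg-C1* at a log2 fold change of 2.56 ± 1.28 (adjusted p = 0.234). The 3 CD4 T cell markers summed to 5.58 to 9.70 CPM in WT and 16.5 to 47.1 CPM in KO. Of these, *Cd40lg* was called higher, *Cd4* was not (1.65 ± 0.42, adjusted p = 0.0161), and *Foxp3* overlapped between groups (adjusted p = 0.37). The part of these cells in the NKR-P1 levels was not tested, and in bulk samples fewer or more cells of a type and less or more RNA per cell cannot be told apart.

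*Klrk1* (ENSMUSG00000030149.15, 129610323 to 129623864, minus strand) encodes NKG2D, an activating receptor for stress-induced ligands. It was at 238, 262, 255 and 265 CPM in WT and 366, 390, 393 and 276 CPM in KO. S5 to S7 were well above WT, and S8 was only just above S4. The log2 fold change was 0.48 ± 0.11 with an adjusted p of 0.00876, yet the fold of 1.39 was under the limit of 1.5 and the gene was not called. Without S8 it was 0.59 (adjusted p = 0.000603), only just past the fold limit, and was called. No other alternative called it. With any other sample left out, its adjusted p was 0.0189 to 0.0351, and it was 0.0271 with the GC content offset.

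The CD94 and NKG2 genes encode heterodimers for the nonclassical MHC class I molecule Qa-1, in which CD94 (*Klrd1*) joins inhibitory NKG2A (*Klrc1*) or activating NKG2C (*Klrc2*) or NKG2E (*Klrc3*). *Klrc1* (ENSMUSG00000030167.15, 129666015 to 129678973, minus strand) held 40.1% of all counts on members. It was at 413, 460, 495 and 494 CPM in WT and 558, 607, 659 and 501 CPM in KO, so S8 lay just above the highest WT sample. Its log2 fold change was 0.32 ± 0.10 (adjusted p = 0.0515), and 0.39 without S8 (adjusted p = 0.0198). Neither value reached the thresholds.

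*Klrd1* (ENSMUSG00000030165.16, 129591782 to 129598775, plus strand) was at 178, 185, 209 and 204 CPM in WT and 224, 234, 229 and 135 CPM in KO. S5 to S7 exceeded all WT samples and S8 was below all of them. The log2 fold change was 0.08 ± 0.14 (adjusted p = 0.798) over all samples and 0.24 without S8 (adjusted p = 0.152). *Klrc2*, at 47.8 to 63.8 CPM in WT and 61.9 to 84.5 CPM in KO, overlapped between groups (0.32 ± 0.13, adjusted p = 0.137). *Klrc3* was at 3.20 to 6.70 CPM in WT and 4.50 to 7.60 CPM in KO (0.28 ± 0.36, adjusted p = 0.712). The NKG2 genes share sequence, since 43.6% of the 43-base words of *Klrc1*, 42.8% of those of *Klrc3* and 18.1% of those of *Klrc2* also occur in other genes, mostly each other, so the split of reads between them is uncertain. *Klrd1* and *Klrk1* share none.

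*Klrg1* (ENSMUSG00000030114.8, 122270596 to 122282882, minus strand) encodes an inhibitory receptor for cadherins that marks effector T cells, and lies outside the natural killer gene complex. It was at 5.46, 9.70, 5.79 and 4.87 CPM in WT and 3.87, 1.86, 1.59 and 12.6 CPM in KO. S5 to S7 were below all WT samples, whereas S8 was the highest of all 8. The log2 fold change of -0.35 ± 0.53 (adjusted p = 0.758) became -1.39 without S8 (adjusted p = 0.0697), so that 1 library set its size. S8 was also lowest in *Pdcd1*, which encodes PD-1, with 306 CPM against 459 to 602 CPM in S5 to S7. It was highest among them in *Eomes*, with 52.5 CPM against 16.3 to 31.8 CPM. Whether these differences bear on the Klr levels of S8 was not tested.

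The Ly49 genes (*Klra* genes) encode receptors for classical MHC class I. Of 11 Ly49 members, 3 were tested and none was called. *Klra2* (ENSMUSG00000030187.15, 131219223 to 131247362, minus strand) encodes Ly49B, an inhibitory receptor known from myeloid cells. It was at 7.15, 5.72, 21.9 and 15.8 CPM in WT and 5.19, 4.53, 1.00 and 3.24 CPM in KO, apart by a narrow margin between S2 and S5. Its log2 fold change was -1.84 ± 0.47 (adjusted p = 0.0162), and -1.44 without S3 (adjusted p = 0.0824). By DESeq2 the change was called lower, at -1.85 (adjusted p = 0.00132).

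The other 10 Ly49 genes together took 100, 173, 202 and 55 counts in the WT samples and 20, 36, 28 and 21 counts in the KO samples. This corresponds to 4.54 to 16.5 CPM in WT and 0.739 to 2.91 CPM in KO, again without overlap. Among them, *Klra5* (Ly49E) had 7, 43, 94 and 19 counts in WT and 7, 0, 0 and 14 counts in KO. *Klra3* (Ly49C) had 29, 43, 21 and 5 counts in WT and 0, 6, 0 and 0 counts in KO. *Klra6* (Ly49F), with 11, 32, 42 and 19 counts in WT and 0, 0, 10 and 0 counts in KO, was tested at -3.23 ± 1.29 (adjusted p = 0.124). *Klra7* (Ly49G) was at 0.412 to 2.45 CPM in WT and 0 to 1.09 CPM in KO, with a log2 fold change of -1.82 ± 1.03 (adjusted p = 0.304). The activating receptors *Klra4* (Ly49D) and *Klra8* (Ly49H) had 7 and 21 counts in all WT libraries and 16 and 18 in all KO libraries. *Klra1*, *Klra9*, *Klra10* and *Klra17* stayed at or under 1.04 CPM in every sample. Sequence is shared among several of them. Other genes held 50.1% of the 43-base words of *Klra10*, 39.9% of those of *Klra9* and 39.0% of those of *Klra8*. The share was 28.0% for *Klra3* and 15.7% for *Klra7*, the latter mainly with *Klra13-ps*, a pseudogene that was left out.

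Myeloid markers were read beside the Ly49 genes. Of 14 such markers, 13 were tested and 10 were called lower in KO, *C1qa*, *C1qb*, *Lyz2* and *Csf1r* among them. Their summed level was 396 to 1160 CPM in WT, highest in S3, and 208 to 287 CPM in KO. S3 was also highest in *Klra2*, *Klra5*, *Klra6* and *Klra7*, whereas *Klra3* and *Klra1* were highest in S2 and *Klra8* was highest in S6. S4 was next to S3 in the myeloid sum but lowest among WT in the sum of the other 10 Ly49 genes. The part of myeloid transcripts in the Ly49 levels was not tested.

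**Figure D3:**
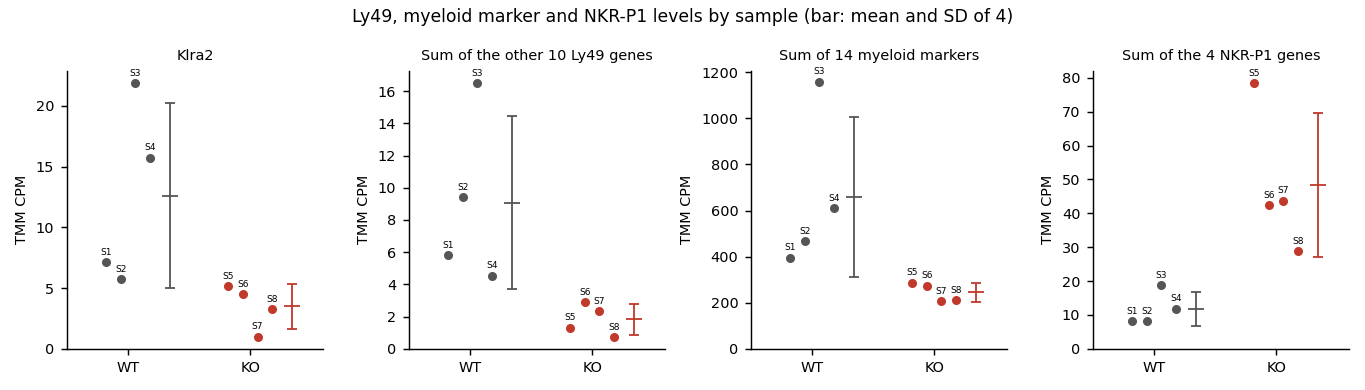
Levels in TMM CPM (y axes, linear, from 0) of *Klra2*, of the other 10 Ly49 genes summed, of 14 myeloid markers summed and of the 4 NKR-P1 genes summed, in each WT (grey) and KO (red) sample, with the mean and SD of each group. S3 is highest in the first 3 panels and all KO samples are below WT there, while in the last panel all KO samples are above WT. *Klrb1b* makes up most of the sum in the last panel.

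Across the family, the summed level was 998, 1096, 1190 and 1170 CPM in S1 to S4 and 1626, 1605, 1662 and 1170 CPM in S5 to S8. S5 to S7 were above WT, while S8 lay among the WT samples. The means were 1113 ± 87.1 CPM in WT and 1516 ± 232 CPM in KO (SD, n = 4 each). *Klrc1*, *Klrk1*, *Klrd1* and *Klri2* together carried most of the sum. The share of the sum taken by *Klri2* was 3.04% to 5.08% in WT and 9.83% to 15.8% in KO, and that of *Klrd1* was 16.9% to 17.8% in WT and 11.5% to 14.6% in KO. The share of *Klrk1* overlapped between groups, at 21.5% to 23.9% and 22.5% to 24.3%.

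Per kilobase of exons (TMM CPM divided by exon length), the order in WT was led by *Klrc1* (235 ± 19.4), *Klrd1* (151 ± 11.9) and *Klrk1* (35.5 ± 1.67). *Klre1* (13.9 ± 1.18), *Klri2* (12.1 ± 2.93) and *Klrc2* (9.98 ± 1.20) followed, of which neighbours differed by less than the SD of the more variable gene. In KO, *Klrc1* (293 ± 34.1) and *Klrd1* (160 ± 36.9) still led, and *Klri2* (50.5 ± 15.5) stood level with *Klrk1* (49.6 ± 7.60). *Klrb1b* moved from 4.66 ± 1.87 to 18.7 ± 8.62 on this scale, and *Klra2* from 6.65 ± 4.00 to 1.84 ± 0.972.

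By position, 23 of the 24 members lay between 128609227 and 131247362 on chromosome 6, a span of 2.64 Mb that holds 92 other annotated genes besides *Klrb1* and the Klr pseudogenes. Of these, 63 had no count and 16 were tested. None was called higher, and *Clec7a* and *Gm156* were called lower. *Clec7a* encodes dectin-1, a receptor found on myeloid cells, and was at 5.89 to 9.38 CPM in WT and 0.788 to 3.88 CPM in KO. *Gm156*, whose RefSeq symbol is *Klrh1* and which the symbol rule therefore did not take, is separated from *Klri2* by 26.1 kb. It was at 21.3, 26.5, 32.7 and 13.8 CPM in WT and 5.91, 4.44, 8.18 and 3.20 CPM in KO. No KO sample reached the lowest WT sample, at a log2 fold change of -2.13 ± 0.31 (adjusted p = 0.00018). *Klri2* and *Gm156*, neighbours in the complex, changed in opposite directions, and each passed the thresholds. *Clec2d* and *Cd69*, in the same complex, had log2 fold changes of 0.05 ± 0.11 and 0.17 ± 0.15 and were not called.

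**Figure D4:**
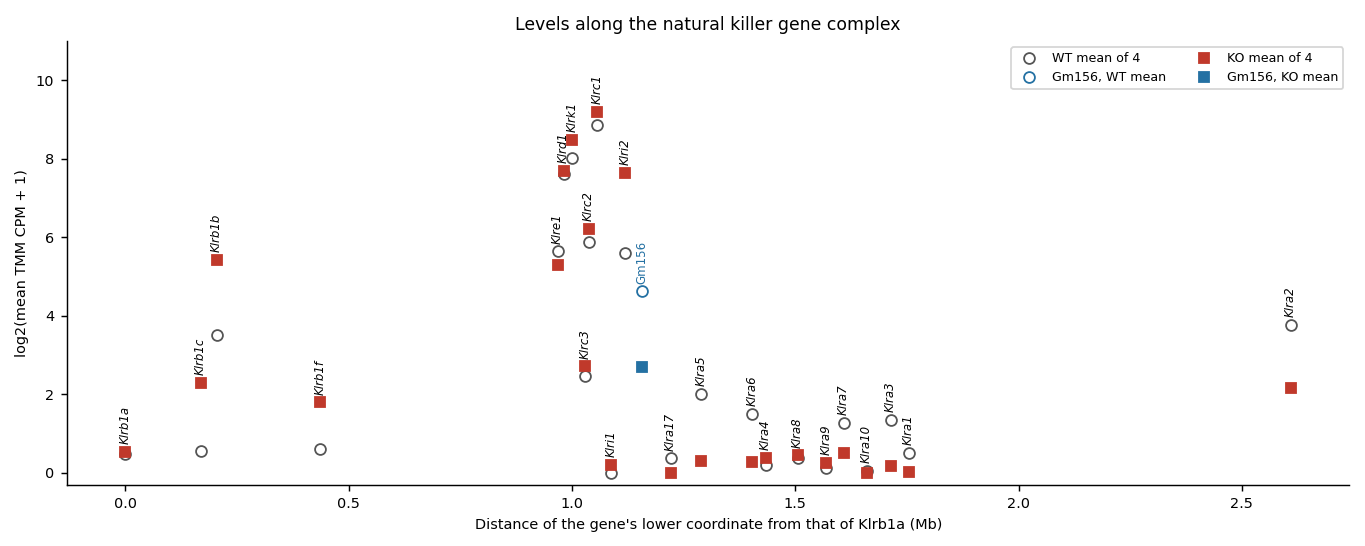
Mean level of 4 samples as log2(TMM CPM + 1) (y axis) against distance in Mb from *Klrb1a* (x axis) for the 23 members of the complex, with open circles for WT and filled squares for KO and *Gm156* in blue. The members with the highest levels lie around 1 Mb, *Klri2* is higher and its neighbour *Gm156* lower in KO, and the *Klra* genes other than *Klra2* lie near the bottom.

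Other genes of the receptor pathway were read from lists. Of 17 adaptor and signalling genes, all tested, 2 were called lower and 0 higher, with a median log2 fold change of -0.19. *Ptpn6*, which encodes the phosphatase SHP-1 recruited by inhibitory Klr members, was at 230 to 288 CPM in WT and 131 to 219 CPM in KO (-0.62 ± 0.13, adjusted p = 0.0054). *Fcer1g*, the adaptor of NK1.1, was at 6.68 to 26.5 CPM in WT and 1.23 to 5.33 CPM in KO (-2.40 ± 0.51, adjusted p = 0.00493). It was highest in S3, as was the summed level of the myeloid markers. *Tyrobp*, the DAP12 adaptor of activating Ly49 and CD94/NKG2C receptors, was at 3.78 to 9.22 CPM in WT and 0 to 1.90 CPM in KO (-2.65 ± 0.79, adjusted p = 0.0401), and was not called. *Hcst*, the DAP10 adaptor of NKG2D, was at 21.2 to 36.6 CPM in WT and 23.2 to 27.9 CPM in KO (-0.04 ± 0.19, adjusted p = 0.937).

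Of 15 ligand genes in the table, 7 were tested and none was called, with log2 fold changes from -0.53 to 0.35. They included *H2-T23*, which encodes Qa-1, *H2-K1*, *H2-D1*, *Ulbp1* and *Clec2d*. Of 18 regulators of receptor genes, 17 were tested. *Tox*, a factor of T cell exhaustion, was called lower, at 72.1 to 113 CPM in WT and 39.9 to 49.7 CPM in KO (-1.17 ± 0.14, adjusted p = 3.3e-05), and 0 were called higher. *Lef1*, a relative of TCF1, was at 23.4 to 34.6 CPM in WT and 34.2 to 67.2 CPM in KO (0.71 ± 0.19, adjusted p = 0.0206). *Runx1* was at 53.2 to 68.9 CPM in WT and 69.5 to 104 CPM in KO, without overlap (0.48 ± 0.13, adjusted p = 0.026). Neither was called. *Eomes*, a T-box factor of NK and memory T cells, was at -0.86 ± 0.27 (adjusted p = 0.0477), and *Tcf7*, which encodes TCF1, at -0.54 ± 0.18 (adjusted p = 0.0633).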

How the data were processed

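The authors aligned paired reads (43 and 42 bases per the methods, 75 in the series design) with STAR to GRCm38 and deposited raw featureCounts counts per gene, without normalization. The strand setting is not given in the sources used here. Columns were assigned to groups by the sample names of the study's PCA and carry no replicate number. All samples were used, and p-values measure the spread between these samples. The 12 pairs of samples within groups differed by more than counting noise (median chi-square per gene 4.90 to 8.56, against 0.455 for noise).

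Gene types, coordinates and exon lengths came from GENCODE M21, which matched 55154 of 55335 IDs. Counts were fitted with edgeR 4.0.16 in R 4.3.3 (filterByExpr, TMM, glmQLFit, glmQLFTest) over 15378 genes, with Benjamini-Hochberg adjustment. A gene passed the filter with at least 0.728 CPM (10 counts at the median depth) in 4 samples. The standard error is the log2 fold change over the root of F. On 3 simulated data sets of this comparison (14744 to 14816 genes tested), 64.4% to 73.0% of 4-fold and 43.6% to 45.7% of 2-fold changes were recovered, with 1 to 4 false calls. Floors cover counting error only. Words of 43 bases were compared between GENCODE transcripts. Promoter windows came from RefSeq (GRCm38.p6).

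The members and gene lists were chosen with earlier results of these data known. The genes named from the lists were picked after their values were seen, for being called, for a stated role or for a level that a member's result touches. Not every called gene is named. *Pacsin1*, from a list of plasmacytoid dendritic cell markers, was called higher (2.63 ± 0.16, adjusted p = 1.54e-08), and several myeloid markers called lower are not named. Some genes with the highest counts on their list, such as *Lck*, are also left out. Alternatives were DESeq2 size factors, library size alone, no filter, 1 CPM in 4 samples, DESeq2 1.42.0, the likelihood ratio test, glmTreat, an adjusted p of 0.05, a GC content offset (mgcv 1.9.3) and leaving out each sample.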

Additional observations from a re-analysis of the deposited data

Results flagged for a closer look

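In 32 groups checked, each of 4 samples, 5 had a sample whose gap to the nearest other sample took more of the group's range than Dixon's 95% critical value on the log2 CPM scale. Chance flags about 1 in 20 groups. S8 was the low sample among KO for *Klrd1* (gap 0.917 of the range, 7.08 against 7.81 to 7.87 in S5 to S7), for *Klre1* (0.843, 4.74 against 5.35 to 5.47) and for the summed level of the members (0.901, 10.19 against 10.65 to 10.70). S8 was also the deepest library. S1 was the low sample among WT for *Klri2* (0.868, 4.93 against 5.69 to 5.80). S7 was the only KO sample with counts of *Klra6*, so its gap took the whole range (1.00).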

How the results depend on the processing

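*Klri2* and *Klrb1b* remained called under every alternative run, with each sample left out included. Of 223 recomputed log2 fold changes of members, 214 kept their direction and side of the thresholds, 8 became called and 1, that of *Klrd1* with the GC content offset, turned to -0.028. No member was called lower in the main fit, against 1 (*Klra2*) by DESeq2, by the likelihood ratio test and at an adjusted p of 0.05, and 2 (*Klra5*, *Klra2*) without the filter. *Klrb1c* was added to the members called higher under these same 4 settings and without S4, and *Klrk1* without S8, so that 2 to 3 were called with a sample left out. Of all genes, 447 were called higher and 306 lower. These became 165 and 130 with glmTreat and 695 and 551 at an adjusted p of 0.05, while 461 were lower by DESeq2, 481 by the likelihood ratio test and 531 without the filter. Leaving out a sample gave 347 to 452 higher and 199 to 303 lower, the lowest without S2. The cause of these shifts was not tested. The summed level (log2 KO over WT, 0.45) ranged from 0.40 to 0.55 with a sample left out, highest without S8. *Klra6* did not pass the filter of 1 CPM in 4 samples. No paired analysis was possible because the columns carry no replicate numbers. *Klri1*, *Klrb1a* and most *Klra* genes did not pass the filter and were not tested one by one in the main fit. Among them, *Klra3* had 98 counts in all WT libraries and 6 in all KO libraries, and *Klra5* had 163 and 21. At this depth 3 counts equal as much as 0.25 CPM.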
